A study of Mus musculus with 10 samples.

Results

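Cyclic nucleotide phosphodiesterases are the enzymes that break down cAMP and cGMP, and 7 of their genes (Pde2a, Pde3b, Pde4a, Pde4b, Pde4d, Pde7a and Pde8a) are described here in tumor-draining lymph nodes (TDLNs). They were taken by symbol out of 33585 genes listed in each library. A filter on the average level, 1 FPKM or more across the 10 libraries, left 13334 genes for testing, and all of the 7 passed it. FPKM counts sequenced fragments relative to transcript length and to the mapped reads of the library, so levels can be set side by side between genes. The genes were chosen by their measured values in the contrast between the groups of these same libraries, which was known when they were picked. Their group differences are therefore given as a description, without a test.

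Bulk RNA sequencing was done on whole TDLNs of 6-week-old female wild-type BALB/c mice, with 1 library per mouse. All mice carried a 4T1 tumor, a transplanted mouse mammary carcinoma line, in the mammary fat pad, and all tumors were treated with microwave ablation (MWA), which destroys tumor tissue by heat. The 5 mice of the MWA group then received injections of PBS, and the 5 mice of the MWA+2DG group received 2-deoxy-D-glucose (2DG), an inhibitor of glycolysis, until the nodes were taken on day 15 after tumor inoculation. The comparison asks how the nodes of the groups differed after ablation with and without 2DG. No group without ablation was analysed here, so the values say nothing about ablation itself. The labels tie no library to a mouse by more than a replicate number, so the spread given is that between these libraries.

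In lymphocytes, cAMP is made by adenylyl cyclases after receptors for adenosine or prostaglandin E2 are engaged, and it acts through protein kinase A and EPAC. At the T cell receptor, protein kinase A activates the kinase Csk, which restrains Lck and with it the receptor's signal. Phosphodiesterases remove cAMP and so limit this brake, and PDE4 enzymes are known to be drawn to the immune synapse when T cells are costimulated. PDE4, PDE7 and PDE8 enzymes act on cAMP, whereas PDE2 and PDE3 enzymes act on cAMP and cGMP and are switched by cGMP in opposite directions, PDE2A being stimulated and PDE3B inhibited. Each PDE4 gene makes several long and short isoforms from separate promoters, which values per gene do not resolve.

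Because cAMP feeds back on phosphodiesterase genes through the factor CREB, the promoters of the genes were searched for the letters that CREB is known to bind. RefSeq promoter windows on build GRCm38.p6 were held for 5 of the 7 genes, 14 windows in all, and the 250 bases before each start were searched. The half-site TGACG, or CGTCA on the other strand, was found in 3 of the 14 windows, and the full palindrome TGACGTCA, which contains the half-site, in 0. Among all 32851 windows searched in the same way, 17.8% held the half-site and 1.55% the full palindrome. The 3 windows with a half-site lie on the plus strand at chr4:102421305-102421554 for Pde4b, at chr7:81213015-81213264 for Pde8a and at chr9:21183851-21184100 for Pde4a. They are shown because PDE4 genes are textbook targets of cAMP feedback, with the half-site in capitals, and the Pde4d window at chr13:108653927-108654176 (plus strand), in which neither motif was found, is shown beside them.
Pde4b: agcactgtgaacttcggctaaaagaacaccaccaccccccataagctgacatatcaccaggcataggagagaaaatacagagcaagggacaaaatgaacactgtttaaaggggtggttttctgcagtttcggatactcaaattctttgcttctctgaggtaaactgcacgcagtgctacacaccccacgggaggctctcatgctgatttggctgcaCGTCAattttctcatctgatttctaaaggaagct
Pde8a: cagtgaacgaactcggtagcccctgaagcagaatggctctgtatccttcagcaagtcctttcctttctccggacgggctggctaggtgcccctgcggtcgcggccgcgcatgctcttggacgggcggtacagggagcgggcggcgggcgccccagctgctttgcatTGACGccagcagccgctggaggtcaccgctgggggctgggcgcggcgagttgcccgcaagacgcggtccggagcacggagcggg
Pde4a: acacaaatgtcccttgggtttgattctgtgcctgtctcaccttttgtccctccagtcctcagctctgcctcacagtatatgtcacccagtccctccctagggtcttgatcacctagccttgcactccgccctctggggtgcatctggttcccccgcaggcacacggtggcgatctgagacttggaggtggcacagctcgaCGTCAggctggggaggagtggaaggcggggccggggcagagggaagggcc
Pde4d: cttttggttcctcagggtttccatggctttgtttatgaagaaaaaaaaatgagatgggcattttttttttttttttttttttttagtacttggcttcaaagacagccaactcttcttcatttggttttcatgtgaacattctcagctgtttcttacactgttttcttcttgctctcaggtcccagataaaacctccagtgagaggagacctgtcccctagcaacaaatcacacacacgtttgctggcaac
The half-site began 34 bases before the start in Pde4b, 84 bases before it in Pde8a and 50 bases before it in Pde4a. The matches are a description of letters and not of binding. The other windows of Pde4b and Pde4a, and the windows of Pde2a, held no match.

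All 10 libraries held the T and B cell markers that define a lymph node. The 16 T cell genes summed to between 774.5 and 1365 FPKM in a library, the 10 B cell genes to between 1506 and 1824 FPKM, and none of these genes was at 0 in any library. Libraries also differed in ways that the groups do not account for. Along the first principal component (36.4% of the variance) replicates 1 and 2 of both groups lay apart from replicates 3 to 5, and liver genes were at a mean log2(FPKM + 1) of 0.654 to 0.698 in replicates 1 and 2 and of 3.00 to 3.97 in replicates 3 to 5. Between these replicate sets, 488 genes differed at an adjusted p under 0.05 (limma with Benjamini-Hochberg adjustment), among them 0 of the 7 phosphodiesterases, whose smallest adjusted p in limma was 0.273. The 7 adipocyte genes summed to 52.1 FPKM in MWA+2DG 5 and to 31.5 FPKM in MWA+2DG 2, against 8.24 to 15.1 FPKM in the other 3 MWA+2DG libraries and 7.61 to 13.4 FPKM in the MWA libraries. Plin1, Lep and Retn of this list were at 0 in MWA 1. MWA+2DG 5 also held the lowest Pde2a value, and differences and correlations that it moves most are given with and without it.

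The levels of the 7 genes followed the same order in 9 of the 10 nodes. Pde7a had the highest level, with a mean of 21.4 FPKM over the 10 libraries, followed by Pde2a at 10.3 FPKM, Pde4b at 6.81 FPKM, Pde3b at 4.66 FPKM, Pde8a at 2.64 FPKM, Pde4a at 1.63 FPKM and Pde4d at 1.11 FPKM. In MWA+2DG 5, the node outside this order, Pde2a at 2.25 FPKM was below Pde4b, Pde3b and Pde8a and so ranked 5 instead of 2, while the other 6 genes kept their order among themselves. The ranges of neighbours over all libraries nevertheless touched, since the lowest Pde7a value (16.9 FPKM) was below the highest Pde2a value (17.6 FPKM). Of the FPKM summed over 22 phosphodiesterase genes, the 7 genes held 78.0% ± 1.86 in MWA nodes and 77.1% ± 2.34 in MWA+2DG nodes (SD, n = 5 each). Pde7a alone held 34.1% ± 0.825 and 34.4% ± 2.31 (SD, n = 5 each). Pde6d was left out of this sum because its product is a carrier of prenylated proteins and not a hydrolase. Pde6g, whose product is a PDE6 subunit and not a hydrolase either, was kept in the sum at a mean of 0.201 FPKM.

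Of the 7 genes, 6 had a higher and 1 a lower mean log2(FPKM + 1) in the MWA+2DG group, with a median difference of 0.07, beside 0.01 over all tested genes. A gene was called where the unadjusted P of limma was under 0.05 and the log2 fold change was beyond 0.25. None of the 7 genes met the rule on the deposited FPKM of all 10 libraries with a pseudocount of 1. Of the 7 genes, 1 had an unadjusted P under 0.05, and in 0 did the groups not overlap. Among all 13334 tested genes the rule called 376, which is 2.82%, made up of 127 higher (0.952%) and 249 lower (1.87%), while 4.25% had an unadjusted P under 0.05 and 0.802% had groups that did not overlap. No gene of the 13334 passed a Benjamini-Hochberg adjusted p of 0.05 in limma, and the smallest adjusted p was 0.995. Since the genes were chosen with this contrast in view, nothing is read from their counts. For 5 of the 7 the difference was smaller than its standard error.

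**Figure D1:**
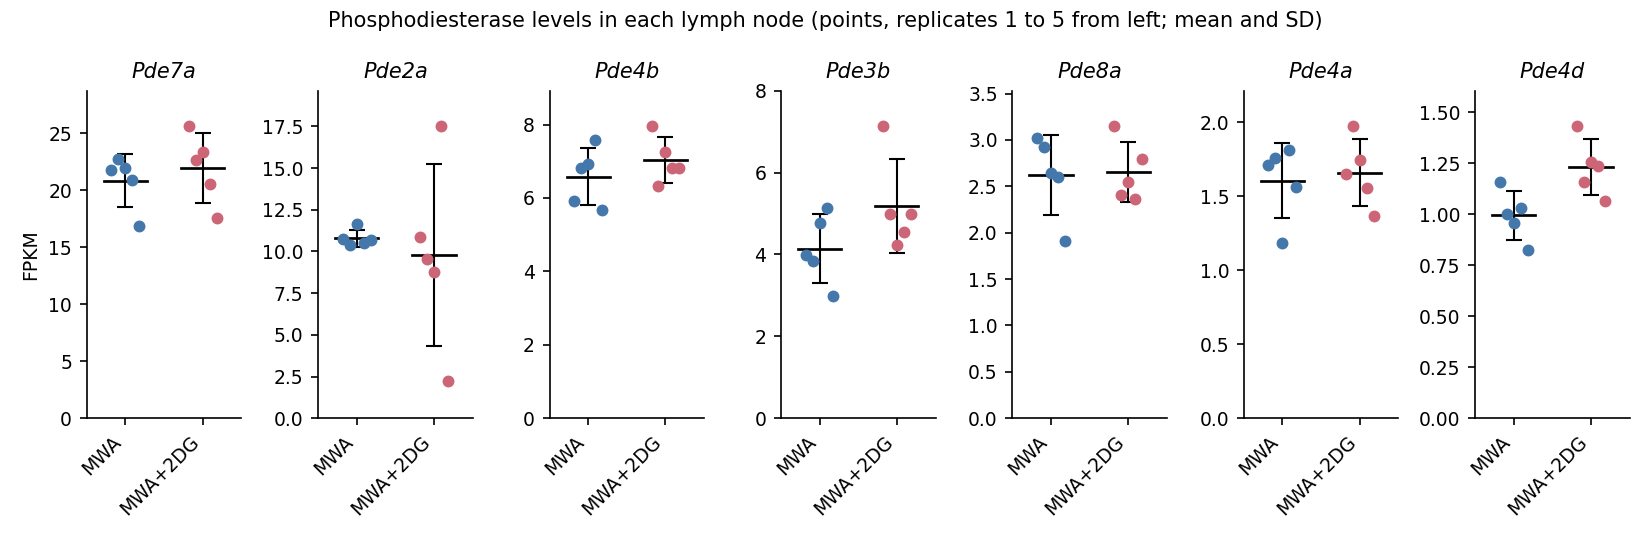
Level of each phosphodiesterase gene in FPKM (vertical axis, starting at 0, a separate scale for each gene) in the MWA and MWA+2DG groups. Points are single libraries, replicates 1 to 5 from left to right, with the group mean and SD. In every gene the groups overlap, Pde2a spans 2.25 to 17.6 FPKM in the MWA+2DG group and 10.4 to 11.7 FPKM in the MWA group, and 4 of the 5 MWA+2DG values of Pde4d lie above all MWA values.

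Pde2a encodes the phosphodiesterase that cGMP stimulates. It was measured at 10.8, 10.4, 11.7, 10.5 and 10.7 FPKM in MWA replicates 1 to 5 and at 10.9, 9.54, 8.79, 17.6 and 2.25 FPKM in MWA+2DG replicates 1 to 5. The MWA nodes lay close together, while the MWA+2DG nodes held the highest and the lowest value of all 10. The means were 10.8 FPKM ± 0.512 and 9.80 FPKM ± 5.46 (SD, n = 5 each), and the log2 fold change was -0.32 with a standard error of 0.36. Without MWA+2DG 5, the node at 2.25 FPKM, it was 0.06, and without MWA+2DG 4 it was -0.57. MWA+2DG 5 also had the highest adipocyte score (mean log2(FPKM + 1) of the list) at 2.65, against 0.733 to 2.06 in the other 9. Its epithelium score was the highest at 1.52, against 0.340 to 0.864, and so was its macrophage score at 4.29. Its B cell, dendritic cell and dividing cell (mitotic gene) scores were the lowest, at 6.30, 2.75 and 3.53. The part of these in the Pde2a value was not tested. MWA+2DG 4, the node with the highest Pde2a value, had an adipocyte score of 0.758.

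Pde3b encodes the cGMP-inhibited phosphodiesterase that is best known from insulin action in fat cells. Its values were 3.98, 3.84, 4.76, 5.12 and 2.99 FPKM in the MWA nodes and 7.15, 4.99, 4.24, 4.54 and 5.00 FPKM in the MWA+2DG nodes. All 5 MWA+2DG values were above the MWA mean, but only replicate 1 was above every MWA value. The means were 4.14 FPKM ± 0.837 and 5.18 FPKM ± 1.14 (SD, n = 5 each), a log2 fold change of 0.26 with a standard error of 0.14. It was the highest log2 fold change of the 7 genes, and its sign was the same under all 17 alternatives, between 0.10 and 0.36. Among these, the replicate block and the replicate set as a term cannot move it, since the groups are balanced over both. Pde4b and Pde4d changed sign only relative to the T cell score, to -0.08 and -0.0023. Nothing is read from the kept sign of Pde3b, which was chosen with this contrast known. Within replicates 1 and 2 the log2 fold change was 0.51 and within replicates 3 to 5 it was 0.10. Without MWA+2DG replicate 1 it was 0.16, the lowest value without 1 library. Without MWA replicate 4 it was 0.33, the highest such value.

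Pde4a, Pde4b and Pde4d encode cAMP-specific enzymes, the targets of rolipram. Pde4d was at 1.16, 1.00, 0.957, 1.03 and 0.827 FPKM in the MWA nodes and at 1.43, 1.16, 1.26, 1.24 and 1.07 FPKM in the MWA+2DG nodes. The groups overlapped by little, since 4 of 5 MWA+2DG values were above the highest MWA value and all 5 were above the MWA mean. The means were 0.994 FPKM ± 0.120 and 1.23 FPKM ± 0.136 (SD, n = 5 each), and the log2 fold change was 0.16 with a standard error of 0.07, under the 0.25 of the rule. Its share of the summed phosphodiesterase FPKM was 1.63% ± 0.118 in MWA nodes and 1.93% ± 0.146 in MWA+2DG nodes (SD, n = 5 each). At about 1 FPKM the pseudocount of 1 lowers a log2 fold change, and with a pseudocount of 0.1 it was 0.28.

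Pde4b, the PDE4 gene that is most readily induced in leukocytes, was at 5.91, 6.82, 6.92, 7.58 and 5.68 FPKM in the MWA nodes and at 7.97, 6.32, 7.25, 6.83 and 6.83 FPKM in the MWA+2DG nodes. The groups overlapped over most of their range. Its log2 fold change was 0.09 with a standard error of 0.09. Pde4a was at 1.71, 1.76, 1.19, 1.81 and 1.56 FPKM in the MWA nodes and at 1.65, 1.98, 1.75, 1.56 and 1.37 FPKM in the MWA+2DG nodes. These too overlapped, and the log2 fold change was 0.03 with a standard error of 0.09, which turned to -0.03 without MWA replicate 3 at the lowest value without 1 library.

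Pde7a and Pde8a encode cAMP-specific enzymes of high affinity that rolipram does not inhibit, and PDE7A has been linked to T cell activation. Pde7a was at 21.7, 22.8, 21.9, 20.9 and 16.9 FPKM in the MWA nodes and at 25.7, 22.6, 23.4, 20.6 and 17.6 FPKM in the MWA+2DG nodes. The lowest node of each group was replicate 5, and the groups overlapped. The log2 fold change was 0.07 with a standard error of 0.11. It was -0.00 without MWA replicate 5 and 0.14 without MWA+2DG replicate 5. Pde8a was at 3.02, 2.92, 2.65, 2.60 and 1.91 FPKM in the MWA nodes and at 3.15, 2.41, 2.55, 2.37 and 2.79 FPKM in the MWA+2DG nodes. The MWA+2DG values lay inside the MWA range in all but 1 node, and the log2 fold change was 0.02 with a standard error of 0.10. Without MWA replicate 5 it was -0.06.

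T cell content was read from a score, the mean log2(FPKM + 1) of 16 T cell genes such as the CD3 chains, Lck and Zap70. The score was 5.24 ± 0.246 in MWA nodes and 5.41 ± 0.211 in MWA+2DG nodes (SD, n = 5 each), a difference of 0.16. A 2-sided exact permutation test over the 10 libraries gave p = 0.246 for this difference, and 0.615 after adjustment over 15 marker lists, although all 16 genes had a log2 fold change above 0. The 8 naive T cell genes, such as Ccr7 and Lef1, had a score of 5.28 ± 0.0748 in MWA nodes and 5.53 ± 0.137 in MWA+2DG nodes (SD, n = 5 each), a difference of 0.25, and all 5 MWA+2DG nodes were above every MWA node (exact permutation p = 0.00794, adjusted p = 0.0595). None of the 7 phosphodiesterase genes separated the groups in this way. The permutation p of 0.00794 is the smallest that 5 against 5 libraries allow. It is given as a description, since the marker lists were chosen with earlier results of these data known. In bulk RNA, more cells of a type and more RNA per cell cannot be told apart. Set relative to the T cell score, the differences of the 7 genes were -0.49 for Pde2a, 0.10 for Pde3b, -0.13 for Pde4a, -0.08 for Pde4b, -0.00 for Pde4d, -0.09 for Pde7a and -0.15 for Pde8a. On this log2(FPKM + 1) scale, Pde3b was the only gene of the 7 with a relative difference above 0. The SD of its relative values was 0.433 in MWA nodes and 0.256 in MWA+2DG nodes. The difference of Pde4d was as large as that of the T cell score on the same scale. At about 1 FPKM the pseudocount of 1 lowers the log2 fold change of Pde4d, which was 0.28 with a pseudocount of 0.1. The sign of Pde4d relative to T cell genes is therefore not settled by these values.

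**Figure D2:**
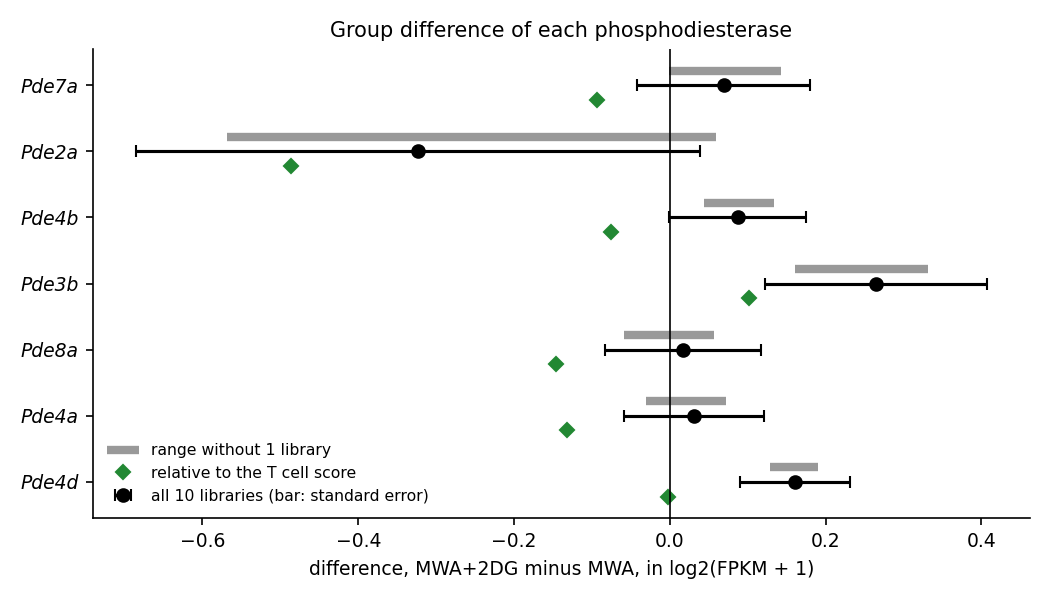
Group difference of each phosphodiesterase gene, MWA+2DG minus MWA, in log2(FPKM + 1) (horizontal axis). Black points with bars are the log2 fold change and its standard error over 10 libraries, grey bars the range when 1 library is left out, and green diamonds the difference relative to the T cell score. Pde2a runs from -0.57 to 0.06 without 1 library, and only Pde3b lies above 0 in all 3 forms.

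Whether nodes with more T cell RNA also held more phosphodiesterase RNA was asked with the group means removed, so that the group difference does not enter. Pearson's r with the T cell score over the 10 libraries was 0.57 for Pde4d, 0.50 for Pde4a, 0.49 for Pde2a, 0.48 for Pde7a, 0.18 for Pde8a, -0.13 for Pde3b and -0.35 for Pde4b. Spearman's rho was 0.42, 0.45, 0.35, 0.54, 0.32, -0.12 and -0.27 in the same order. The exact permutation p within groups (2-sided) was between 0.113 and 0.743 for r and between 0.140 and 0.752 for rho. After adjustment over the 105 pairs of 7 genes and 15 lists, the p of the permutation test was between 0.605 and 0.848 for r and between 0.733 and 0.996 for rho. Over the 10 libraries none of the 7 relations to the T cell score passed the threshold of 0.05, adjusted or not, which does not show that there was none. Without MWA+2DG replicate 5 the r of Pde7a was 0.15, that of Pde4d 0.39, that of Pde4a 0.31 and that of Pde2a -0.20.

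The T cell score, taken before the group means were removed, was farthest from its median in the nodes MWA 3 and MWA 4. Without them r was 0.79 for Pde4d, 0.78 for Pde7a, 0.71 for Pde4a, 0.68 for Pde2a, 0.44 for Pde3b, 0.27 for Pde8a and 0.13 for Pde4b. The exact permutation p, not adjusted, was 0.0444 for Pde4d and 0.0417 for Pde7a and between 0.0861 and 0.764 for the other 5. MWA 1 and MWA+2DG 5, whose T cell scores lay farthest from their group means, were kept here. These values therefore do not show how far the pooled r rests on its outlying nodes. Within replicates 3 to 5, which hold 6 libraries, r was 0.69 for Pde2a, 0.31 for Pde4a, 0.14 for Pde7a, 0.08 for Pde4d, -0.48 for Pde4b, -0.79 for Pde3b and -0.81 for Pde8a, and the exact permutation p, not adjusted, was 0.0278 for Pde3b, the smallest that 6 libraries allow, and between 0.111 and 0.833 for the other 6 genes. Replicates 1 and 2 hold 4 libraries, too few for a value. The values of Pde4d and Pde7a within replicates 3 to 5 were thus far below the pooled ones, and the sign of Pde8a was the opposite of the pooled one.

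**Figure D3:**
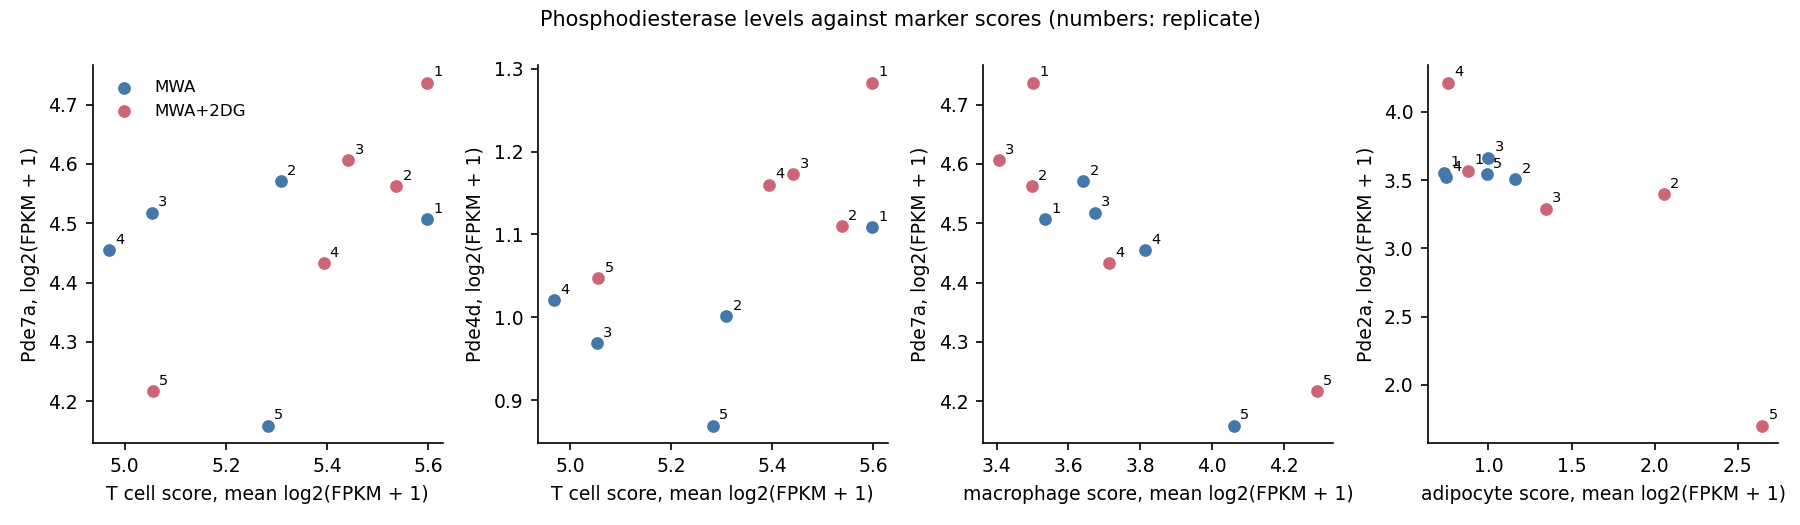
Level of a phosphodiesterase gene in log2(FPKM + 1) (vertical axes) against a marker score, the mean log2(FPKM + 1) of a marker list (horizontal axes), for Pde7a and Pde4d with T cell genes, Pde7a with macrophage genes and Pde2a with adipocyte genes. Points are libraries, coloured by group and numbered by replicate. Both replicates 5 sit at the low end of Pde7a with macrophage scores of 4.06 and 4.29, and MWA+2DG 5 sits alone at an adipocyte score of 2.65.

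The strongest relations were with other lists. Pde7a was lower in nodes with a higher macrophage score (r = -0.90, rho = -0.72). The exact permutation p was 0.00292 for r and 0.0360 for rho, and the adjusted p was 0.164 and 0.733 over the 105 pairs. Without MWA 5 and MWA+2DG 5, the farthest nodes, r was -0.62 (permutation p = 0.148), so the relation rests in large part on these nodes. Within replicates 3 to 5, which hold both of these nodes, r was -0.92. The 8 macrophage genes summed to between 169.6 and 275.2 FPKM in the MWA libraries and between 150.8 and 239.2 FPKM in the MWA+2DG libraries, and none was at 0 in any library. They did not move as one in MWA+2DG 5, where Csf1r was the lowest of all 10 libraries at 17.95 FPKM. Fcgr1 at 12.38 FPKM, Adgre1 at 2.81 FPKM and Mertk at 3.15 FPKM were the highest there, and Cd68, C1qa, C1qb and C1qc were above their group means. Pde7a also had r of 0.84 with dendritic cell genes (rho = 0.78), 0.82 with endothelial genes (rho = 0.81) and 0.81 with B cell genes (rho = 0.56). The exact permutation p of r was 0.00312, 0.00875 and 0.0178, and the adjusted p was 0.164, 0.278 and 0.278. For rho the permutation p was 0.0148, 0.0126 and 0.119, and the adjusted p was 0.733 for each. Without the 2 nodes farthest from the median of each score, r was 0.68, 0.75 and 0.62 (permutation p = 0.0903, 0.136 and 0.156), so these relations weakened too.

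Pde2a had an r of -0.85 with the adipocyte score (rho = -0.61), with an exact permutation p of 0.0201 and 0.0950 and an adjusted p of 0.278 and 0.733. Without MWA+2DG 2 and MWA+2DG 5 it was -0.64 (permutation p = 0.349). With the dividing cell list, which holds mitotic genes such as Mki67, r was 0.78 (rho = 0.66), with an exact permutation p of 0.0161 and 0.0436 and adjusted p of 0.278 and 0.733. Without MWA 4 and MWA+2DG 5 it was 0.85 (permutation p = 0.0226, not adjusted). Within replicates 3 to 5 it was 0.87 (permutation p = 0.222). Of the 105 pairs, 12 had a permutation p under 0.05 for r and 0 had an adjusted p under 0.05 for r or rho. The liver score split the libraries into separate clusters, and no pooled r is given for it.

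**Figure D4:**
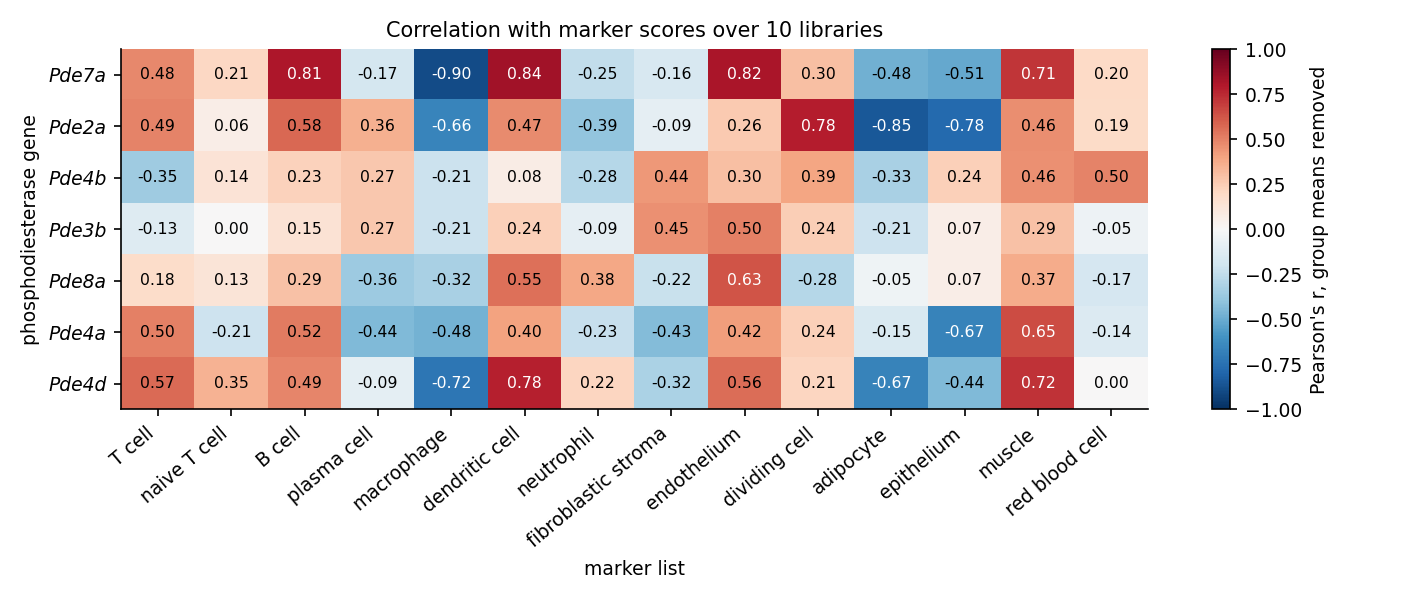
Pearson's r of each phosphodiesterase gene (rows, from the highest to the lowest level) with each marker score (columns) over 10 libraries after the group means were removed. Colour and number give r, from -1 to 1. The row of Pde7a holds the most extreme values, -0.90 with macrophage and 0.84 with dendritic cell genes, while the T cell column runs from -0.35 to 0.57.

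Among themselves the 7 genes mostly varied in the same direction from node to node, with r above 0 in 18 of 21 pairs. The highest was Pde4d with Pde7a (r = 0.81, rho = 0.67), with an exact permutation p of 0.0145 and 0.0537 and an adjusted p of 0.260 and 0.379 over the 21 pairs. Pde3b with Pde4b had r = 0.75 (rho = 0.64) and Pde4d with Pde8a r = 0.71 (rho = 0.64), with adjusted permutation p of 0.260 and 0.264 for r and of 0.379 in either pair for rho. None of the 21 pairs passed the adjustment. Without the 2 farthest nodes these r were 0.48, 0.36 and 0.00, and within replicates 3 to 5 they were 0.90, 0.86 and 0.37. The 18 positive pairs share libraries, genes and the scaling of each library, so they are not separate observations.

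For each of the 7 genes, the 3 tested genes with the highest r over the 10 libraries, group means removed, are named as a description. For Pde7a these were Pqlc3 (r = 0.98), Lrrc58 and Zfp326, and for Pde8a they were Grk3 (r = 0.98), which encodes a kinase of G protein-coupled receptors, Maml2 and Patj. Pde4d varied most like Lrrc8c (r = 0.96), a subunit of volume-regulated anion channels, Tfrc, the transferrin receptor, and Fbxl14. Pde4b varied most like Bach2 (r = 0.95), a transcription repressor of lymphocytes, Riok3 and Wac. Pde3b had Zfp809 (r = 0.95), Rlf and Nepro, Pde2a had Fam83f (r = 0.94), Sox4 and Zik1, and Pde4a had Isg20l2 (r = 0.92), Cdca7l and Dbr1. The log2 fold changes of these genes lay between -0.12 for Tfrc and 0.23 for Zfp809.

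The rest of the cyclic nucleotide pathway was read from 9 lists of 109 genes, of which 108 were in the tables and 71 were tested. In MWA+2DG against MWA, 0 of the 71 were called higher and 2 lower, which is 2.82% and the same share as among all genes. The median log2 fold change was 0.06 and 46 of the 71 were above 0, beside a median of 0.01 and 52.6% above 0 among all tested genes. Both called genes encode enzymes of adenosine metabolism, and adenosine outside the cell is a ligand that raises cAMP in lymphocytes. When each library was rescaled to a sum of 1000000, about 3 times the deposited sums with the pseudocount still at 1, the share of all genes above 0 moved to 69.9%, the calls over all genes to 328 higher and 159 lower, and the pathway calls to 5 higher and 2 lower. Rescaling to the mean of the 10 library sums, added after seeing the data, gave 69.9%, 273 higher and 147 lower, and 4 higher and 2 lower pathway genes.

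Nt5e encodes CD73, which makes adenosine from AMP. It was at 2.41, 2.82, 3.27, 3.77 and 3.29 FPKM in the MWA nodes and at 2.80, 2.55, 2.01, 2.31 and 1.82 FPKM in the MWA+2DG nodes. In 3 of the 5 MWA+2DG nodes it was below every MWA value. Its log2 fold change was -0.32 with a standard error of 0.11, and limma gave a P of 0.0156 before and 0.995 after adjustment. Ada encodes adenosine deaminase, which removes adenosine, and was at 18.5, 19.8, 23.4, 22.6 and 33.9 FPKM in the MWA nodes and at 15.8, 17.6, 16.9, 19.3 and 13.1 FPKM in the MWA+2DG nodes. Here 4 of the 5 MWA+2DG nodes were below every MWA value. The log2 fold change was -0.47 with a standard error of 0.16, and limma gave a P of 0.0119 before and 0.995 after adjustment. Both genes stayed called whichever library was left out, with log2 fold changes of -0.38 to -0.26 for Nt5e and of -0.55 to -0.34 for Ada. These refits are a description, since both genes are named for their calls in these same libraries. The pathway lists were chosen with earlier results of these data known. Marker lists that were also lower in MWA+2DG nodes included neutrophil genes, with 0 of 4 tested markers above 0 and a score difference of -0.73. All 5 MWA+2DG nodes were below every MWA node (exact permutation p = 0.00794, adjusted p = 0.0595). This p is the smallest that 5 against 5 libraries allow, and the marker lists were chosen with earlier results of these data known. The separation was narrow, with 1.864 in MWA+2DG 5 and 1.877 in MWA 2. Of the 6 neutrophil genes, 3 were at 0 in at least 1 library, and their summed FPKM overlapped between the groups. B cell genes had 0 of 10 above 0 and a difference of -0.09 (exact permutation p = 0.302, adjusted p = 0.646). Lower too were mitotic genes, with 0 of 6 markers above 0 and a score difference of -0.32 (exact permutation p = 0.0238, adjusted p = 0.119). Plasma cell genes had 0 of 5 above 0 and a difference of -0.45 (exact permutation p = 0.175, adjusted p = 0.524). Red blood cell and liver genes had 0 of 4 and 0 of 7 above 0, with differences of -0.31 and -0.28 (exact permutation p = 0.421 and 0.564, adjusted p = 0.789 and 0.825). Macrophage, fibroblastic stroma and endothelium scores differed by -0.06, -0.03 and -0.06. The part of these lists in the lower Ada and Nt5e values was not tested.

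Of the other 17 phosphodiesterase genes, 16 were in the tables and 4 passed the filter, and 0 were called. Pde1b, a calmodulin-stimulated enzyme, was at 8.99 FPKM ± 2.08 in MWA nodes and 9.81 FPKM ± 1.76 in MWA+2DG nodes (SD, n = 5 each), close to the level of Pde2a. Pde6d was at 9.86 FPKM ± 1.902 and 8.65 FPKM ± 1.48 (SD, n = 5 each). Pde5a, the cGMP-specific enzyme that sildenafil inhibits, was at 0.849 and 1.17 FPKM with a log2 fold change of 0.22 (standard error 0.09), under the 0.25 of the rule, and limma gave a P of 0.0362 before and 0.995 after adjustment. The 12 that did not pass the filter, among them the retinal PDE6 subunits, were at means of 0.00234 to 0.378 FPKM.

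**Figure D5:**
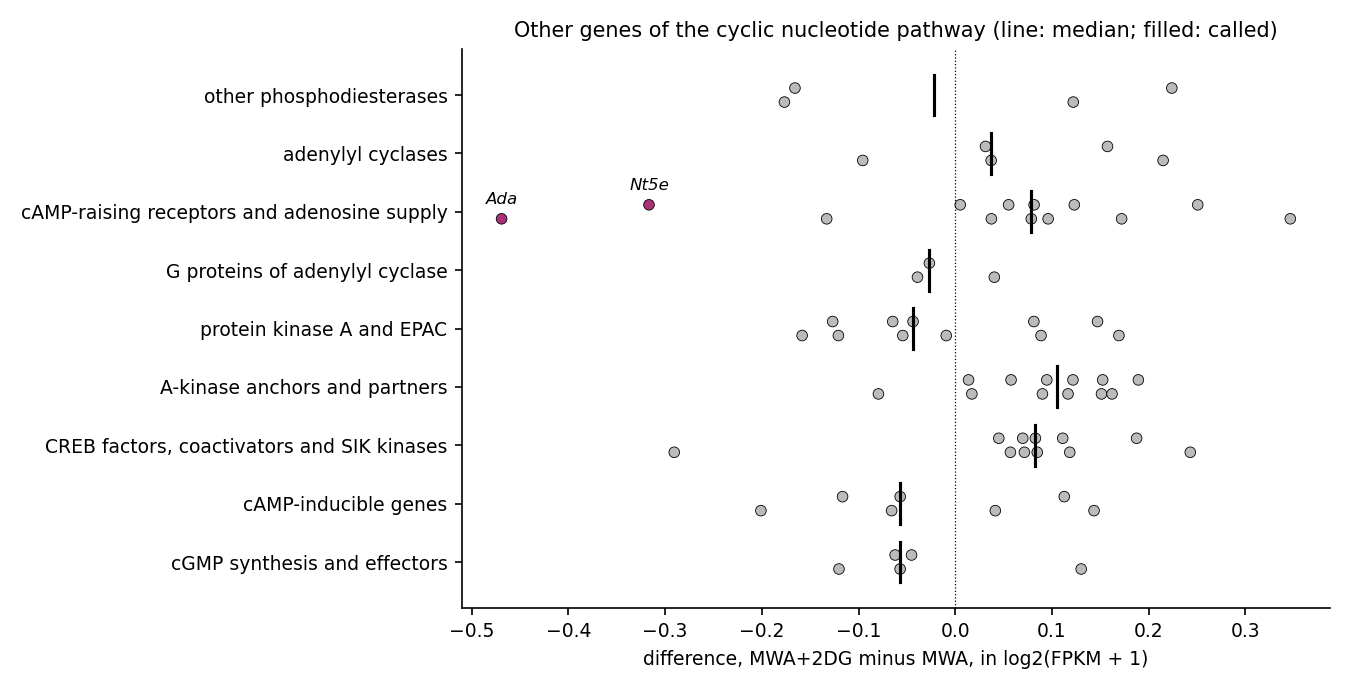
Log2 fold change, MWA+2DG minus MWA, of the 71 tested pathway genes (horizontal axis, in log2(FPKM + 1)) by list (rows). Each point is a gene, black lines are list medians, and filled points with names are the called genes. Ada at -0.47 and Nt5e at -0.32 are the lowest, and Vipr1 at 0.35, which was not called, is the highest.

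Upstream of the phosphodiesterases, Adcy7, the main adenylyl cyclase of these nodes, was at 35.1 FPKM ± 5.00 and 40.8 FPKM ± 4.95 (SD, n = 5 each; MWA first), followed by Adcy6 at 8.06 FPKM and 8.79 FPKM. Of 5 tested cyclases 0 were called. Of 13 receptors and adenosine genes, 0 were called higher and 2, Nt5e and Ada, lower. Of 3 tested G protein genes 0 were called, with Gnai2 at 172.1 FPKM and 169.0 FPKM and Gnas, which encodes the stimulatory subunit, at 46.2 FPKM and 44.9 FPKM.

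Downstream, 0 of 11 protein kinase A and EPAC genes were called, led by the regulatory subunit Prkar1a at 79.6 FPKM and 76.7 FPKM and the catalytic subunit Prkaca at 22.7 FPKM and 20.9 FPKM. Of 12 A-kinase anchors and their partners 0 were called and 11 had a log2 fold change above 0, with a median of 0.11. Csk was at 136.3 FPKM and 128.8 FPKM and Ezr, which encodes the anchor protein ezrin, at 92.1 FPKM and 93.1 FPKM. Of 11 genes for CREB factors, their coactivators and SIK kinases 0 were called and 10 were above 0, with a median of 0.08, Crtc2 at 22.2 FPKM and 23.9 FPKM and Atf1 at 13.7 FPKM and 14.3 FPKM.

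The genes that cAMP is known to induce through CREB gave no call in either direction. Of 7 tested, 3 were above 0 and the median log2 fold change was -0.06, with Junb at 47.3 FPKM and 51.2 FPKM and Rgs2, which encodes a regulator of G protein signaling, at 13.95 FPKM and 12.04 FPKM. In the cGMP arm 0 of 5 tested genes were called and 1 was above 0, led by the natriuretic peptide receptor genes Npr1 at 2.54 FPKM and 2.24 FPKM and Npr2 at 1.28 FPKM and 1.18 FPKM. The values hold no read counts, so the counting error of a level near 1 FPKM, such as that of Pde4d, is unknown.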

How the data were processed

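TDLNs of 10 mice, 5 per group, were sequenced, and groups were taken from the treatment labels. Per the labels and the submitters' processing notes, the authors used cutadapt 1.9, HISAT2 2.0.4, UMI-tools and StringTie 1.3.4d with build mm9, and the methods also name fastp and ballgown. The authors deposited 1 table of FPKM per library, already divided by transcript length and mapped reads. Depth is therefore unknown, no counting interval could be given, and the smallest FPKM above 0 was 1e-06, so that reads were not recovered. FPKM summed to between 312143 and 359984 in a library. No pair of libraries held equal nonzero values in more than a share of 0.000148 of genes.

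Identifiers were matched to symbols with the reference's gene name table (33541 of 33643), and 57 symbols with several identifiers were summed. Genes averaging 1 FPKM or more were fitted on the scale of log2(FPKM + 1), using R 4.3.3 and limma 3.58.1 (lmFit, then eBayes, without covariates) and Benjamini-Hochberg adjustment. The thresholds of P and fold change follow the study's methods, while the pseudocount, the filter and the base of the log were set for the present work. Simulated data with known changes served to test the fit. Log2 fold changes are on the log2(FPKM + 1) scale, which understates changes of low genes. Correlations used values with group means removed and all 14400 permutations within groups (2-sided, exact), in Python 3.11.15 with numpy 2.4.6 and scipy 1.17.1. The nodes farthest from the median of a marker score were picked before group means were removed.

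The 7 genes, the pathway lists and the marker lists were chosen with earlier results of these data known, and several lists hold genes that other cells of the node also express. Named were the 7 genes, the called genes and the 2 genes of highest mean FPKM in each pathway list, and the 3 genes most like each of the 7; 1 gene that this rule names is not reported here. Vipr1, Pde5a and the genes named for an alternative only (Crtc3, Ptgir, Sik1) were singled out after their values were seen. Markers were scored for 15 lists. The score differences (MWA+2DG minus MWA) not given with the results were 0.03 for dendritic cells, 0.61 for adipocytes, 0.18 for epithelium and 0.02 for muscle. Same-numbered libraries of the groups were checked for pairing, and the numbers were not taken as pairs. Alternatives were other pseudocounts, filters, scalings and tests, the replicate block, the replicate sets, and leaving out each library. The authors' cell type estimates and pathway scores were not used here.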

Additional observations from a re-analysis of the deposited data

Results flagged for a closer look

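The Pde3b value of MWA+2DG 1, 7.15 FPKM, stood far from the other 4 nodes of its group, which lay between 4.24 and 5.00 FPKM. The gap to the nearest node was 0.740 of the range of the group, above Dixon's critical value of 0.71 for 5 samples. Dixon's rule was applied to 18 groups of values, and chance flags about 1 in 20. The log2 fold change of Pde3b was 0.26 with this node and 0.16 without it, the lowest of the values found when any 1 library was left out.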

How the results depend on the processing

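Over all genes, 376 were called, and the count was 230 with a filter of 5 FPKM, 210 with the Wilcoxon rank-sum test, 567 without the fold change rule and 0 with an adjusted p, and it ran from 283 to 512 when 1 library was left out. The 2 pathway calls became 4 with a pseudocount of 0.1 (with Crtc3 and Pde5a higher), 1 with the filter of 5 FPKM (Ada, as Nt5e did not pass the filter), 7 after rescaling to 1000000, 6 after rescaling to the mean library sum (added after seeing the data), 4 without the fold change rule and 0 with an adjusted p, and ran from 2 to 5 without 1 library. They were 4 without MWA replicate 4, where Ptgir was higher and Sik1 lower, and 5 without MWA+2DG replicate 5, where Adcy7, Crtc3 and Vipr1 were higher. Relative to the T cell score, the differences of Pde4a, Pde4b, Pde4d and Pde8a were -0.13, -0.076, -0.0023 and -0.15. The log2 fold change of Pde4d was 0.28 with a pseudocount of 0.1 and 0.29 after rescaling to 1000000, but 0.19 after rescaling to the mean library sum. Pde4d met the rule for a call with that pseudocount and after rescaling to 1000000, and Pde3b met it without MWA replicate 4. The calls over all genes were then 444, 487 and 401. Nothing is read from the calls of the 7 genes, which were chosen with this contrast known. The correlation of Pde8a with the T cell score turned to -0.11 with median ratio scaling and to -0.49 with the replicate set removed, and ran from -0.087 to 0.37 without 1 library. That of Pde3b turned to 0.089 without centring and ran from -0.51 to 0.096, and that of Pde2a ran from -0.20 to 0.63. Those of Pde7a and Pde4d ran from 0.15 to 0.67 and from 0.37 to 0.74. The causes were not tested. The count of pairs among the 7 genes past the adjusted p was 0 under 16 alternatives chosen after seeing the data. Same-numbered libraries of the groups correlated at 0.33, 0.50, 0.11, 0.03 and 0.15 in their deviations from the group means, 1 of them under 0.1, so the numbers were not read as pairs. With the replicate block 449 genes and 3 pathway genes were called, the third being Vipr1, higher. The log2 fold changes are those without the block. Of the log2 fold changes of a single gene under an alternative, 161 stayed within 1 SD or on their side of the threshold and 6 did not. The 161 include settings that cannot move the value, such as the replicate block. They also include changes of sign, such as that of Pde2a to 0.06 without MWA+2DG replicate 5, so the count does not measure stability. FPKM without counts limits what can be said of genes near 1 FPKM.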
